A study of Mus musculus with 12 samples.

Results

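The proteasome genes described here were the 48 genes of the count tables, out of 32531 gene rows, whose symbols joined the root Psm to a family letter from a to g and a number. They encode the subunits of the 20S core (Psma and Psmb), the subunits of the 19S regulatory particle and some of its assembly chaperones (Psmc and Psmd), the other activators of the core (Psme), the inhibitor PI31 (Psmf1) and the chaperones that assemble the core (Psmg). The libraries came from adult mice of the transgenic line Slc17a6-EGFP/Rpl10a (JX883), in which EGFP-tagged Rpl10a, a protein of the large ribosomal subunit, is made under the regulatory sequences of Slc17a6, the gene of the vesicular glutamate transporter VGLUT2. In translating ribosome affinity purification followed by sequencing (TRAP-seq), antibodies against EGFP capture the tagged polysomes. The 4 groups were hypothalamus IP, hypothalamus input, midbrain IP and midbrain input, with 3 libraries each, where IP is the ribosome-bound RNA captured from the tagged cells and input is RNA of the dissected tissue. Mice of all 4 groups carried the transgene and no further allele or treatment was given in the labels. An IP from mice without the tag was not analysed here, and whether a library came from 1 animal or a pool was not given in the sources used here.

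The proteasome degrades proteins that carry ubiquitin chains. Its 20S core is a stack of 2 outer rings of alpha subunits and 2 inner rings of beta subunits, and the 19S particle, made of a base with a ring of ATPases and a lid that removes ubiquitin, feeds unfolded proteins into it. The beta subunits beta1, beta2 and beta5, encoded by Psmb6, Psmb7 and Psmb5, cut the protein chain. In immune cells and under interferon Psmb9, Psmb10 and Psmb8 take their places in newly built cores. The result is the immunoproteasome, known for producing peptides for MHC class I and, in brain, mainly for microglia and inflamed tissue. Neurons use the constitutive form to clear damaged proteins and to remodel synapses.

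The promoters of 5 members are shown because these genes carry the contrasts described below: 2 constitutive catalytic subunits, the immunoproteasome subunit that was well detected, the activator subunit that differed between the tissues, and the 1 member that fell. RefSeq gave a promoter (build GRCm38.p6, the same coordinates as mm10) for 40 of the 48 members. Each window runs from 250 bases before to 30 bases after the RefSeq start site and is written 5′ to 3′ on the gene's strand. Capitals mark matches, on either strand, to the antioxidant response element core TGACNNNGC, through which the factor Nfe2l1 drives proteasome genes, or to the core of the interferon-stimulated response element, which is GAAA, any 2 bases and GAAA. The windows were chr14:54617966-54618245 on the minus strand for Psmb5, chr11:70525107-70525386 on the plus strand for Psmb6, chr8:105938363-105938642 on the minus strand for Psmb10, chr14:55578244-55578523 on the plus strand for Psme1 and chr11:30771525-30771804 on the plus strand for Psme4.
Psmb5: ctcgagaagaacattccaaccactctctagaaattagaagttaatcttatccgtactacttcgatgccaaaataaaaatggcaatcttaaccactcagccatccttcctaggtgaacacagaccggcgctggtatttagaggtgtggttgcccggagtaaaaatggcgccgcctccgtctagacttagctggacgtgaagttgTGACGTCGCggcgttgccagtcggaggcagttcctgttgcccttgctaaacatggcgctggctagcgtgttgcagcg
Psmb6: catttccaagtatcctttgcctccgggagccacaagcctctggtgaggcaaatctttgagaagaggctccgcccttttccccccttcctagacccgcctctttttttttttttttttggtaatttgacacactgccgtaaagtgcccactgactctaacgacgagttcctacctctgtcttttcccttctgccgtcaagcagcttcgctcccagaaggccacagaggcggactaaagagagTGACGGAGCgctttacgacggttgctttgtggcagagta
Psmb10: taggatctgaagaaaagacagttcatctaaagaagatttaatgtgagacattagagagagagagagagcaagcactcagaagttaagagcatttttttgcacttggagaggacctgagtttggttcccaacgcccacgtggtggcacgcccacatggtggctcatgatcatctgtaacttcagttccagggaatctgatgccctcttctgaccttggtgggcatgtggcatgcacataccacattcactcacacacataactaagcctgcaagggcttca
Psme1: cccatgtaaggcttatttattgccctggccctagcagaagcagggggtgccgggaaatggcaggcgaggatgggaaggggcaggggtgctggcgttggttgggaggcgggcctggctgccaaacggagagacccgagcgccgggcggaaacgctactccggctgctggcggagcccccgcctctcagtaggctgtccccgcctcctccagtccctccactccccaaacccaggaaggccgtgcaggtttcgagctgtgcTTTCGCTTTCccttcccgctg
Psme4: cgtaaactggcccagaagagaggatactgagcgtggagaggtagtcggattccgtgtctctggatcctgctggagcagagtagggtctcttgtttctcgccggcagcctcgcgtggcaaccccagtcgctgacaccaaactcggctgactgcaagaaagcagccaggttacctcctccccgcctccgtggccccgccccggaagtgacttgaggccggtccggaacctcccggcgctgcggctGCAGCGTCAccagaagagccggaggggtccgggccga
Counting the start base as 1 and the base before it as −1, the match to TGACNNNGC began at −47 in Psmb5, at −9 in Psmb6 and at −7 in Psme4, and the match to the interferon core at 10 in Psme1. The Psmb10 window held no match to any of the 4 motifs searched. TGACNNNGC was found in 6 of the 40 member windows (15.0%) and in 11.6% of 27025 mouse promoters of the same length. The interferon core was found in 5 (12.5%) against 3.35%, and CCAAT in 14 (35.0%) against 36.6%. Those 5 were Psmb3, Psmd4, Psmd9, Psme1 and Psmg4, and the windows of Psmb8, Psmb9, Psmb10 and Psme2 held no interferon core. Among 12227 promoters of genes tested, TGACNNNGC was found in 13.65% and the interferon core in 2.76%. The NF-kB core, GGGA, any base and TTTCC, was found in 0 against 0.366%. The interferon core and the reverse complement of the NF-kB core share the letters GAAA and could overlap, although each printed window held at most 1 match. Psme4, which moved opposite to Psmb5 and Psmb6 in the data below, carried the same motif as they did. A match describes letters only, and binding at these places was not measured.

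Each library held 41909019 to 55148109 counts over genes, of which the members took 0.280% to 0.424%. A count of 3, the floor used here, came to 0.0544 to 0.0716 CPM, the unit of counts relative to the library's total. The IPs numbered 1 stood apart from the other IPs: Rn45s, which holds ribosomal RNA, took 12.3% and 12.5% of their counts, against 5.21% to 6.85% in the other IPs and 2.57% to 3.97% in the inputs. They also held the lowest share of member counts among the IPs, 0.311% in the hypothalamus and 0.280% in the midbrain against 0.370% to 0.424%. Slc17a6 rose by 2.60 on the log2 scale in the IP of the hypothalamus (adjusted p = 0.00184) and by 1.82 in that of the midbrain (adjusted p = 0.0116). The sequencing index was 1 for all IPs and a different one for all inputs, and its effect cannot be told apart from that of the capture. All 10 microglia markers, all 8 astrocyte markers and all 8 oligodendrocyte markers fell in the IP of both regions, while 4 of 5 neuron markers rose in the hypothalamus and 2 of 5 in the midbrain. All 3 GABAergic markers fell in both regions. Of 10 endothelial markers 7 fell in the hypothalamus and 7 in the midbrain, while DESeq2 and limma-voom each called 1 of them higher in the hypothalamus. In such tissue libraries, fewer cells of a type and less RNA per cell cannot be told apart. Levels below are CPM after scaling by the trimmed mean of M values, the sums over gene groups included, and adjusted p-values come from the quasi-likelihood test of edgeR, by the method of Benjamini and Hochberg over all 18128 genes tested, with 0.05 as the threshold. A single number after a gene name below is its log2 fold change. Of the 48 members 47 had counts enough to be tested.

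A minority of the proteasome genes were higher on the captured ribosomes than in the tissue, in both regions. In the hypothalamus 17 of 47 members were higher in the IP, 1 was lower and 29 did not pass, where 14.2% of all genes tested were higher and 19.6% lower. The midbrain gave 17 higher, 1 lower and 29 not passed, against 14.0% and 19.9% of all genes. The median log2 fold change of the members was 0.39 in the hypothalamus and 0.38 in the midbrain, and that of all genes tested −0.08 and −0.05. In all, 13 members rose in both regions and Psme4 fell in both. Another 4 (Psma7, Psmb3, Psmb5 and Psmd13) passed in the hypothalamus and 4 (Psmd5, Psme1, Psmg1 and Psmg2) in the midbrain, without a regional difference that passed for any of these 8, and 25 passed in neither. The changes were small: 4 of the members that rose reached 2-fold in the hypothalamus and 5 in the midbrain.

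In 30 of the 47 members the IP was higher than the input of the same number in 3 of 3 pairs in the hypothalamus, and in 29 in the midbrain, as were 29.4% and 31.0% of all genes. The 3 IP libraries lay above the 3 inputs without overlap for 25 members in the hypothalamus and 22 in the midbrain, where 19.7% and 21.1% of all genes did so. They lay below for 1 member, Psme4, in the hypothalamus and for 4 in the midbrain (Psme4, Psmb8, Psmc5 and Psmd12, of which only Psme4 passed), where 27.3% and 27.8% of all genes did so. The replicate numbers were taken to pair the libraries, which the labels do not state. Fitted with these numbers as a block, the counts were 25 higher and 1 lower in the hypothalamus and 23 higher and 2 lower in the midbrain. The 18 called members of each region were among them. Without midbrain input replicate 3 the midbrain count of higher members was 10. Scaling by library size alone moved the median of all genes to −0.25 in the hypothalamus and −0.13 in the midbrain and that of the members to 0.23 in the hypothalamus, and 12 members passed as higher in each region. The share of higher genes among all calls was then 28.9% in the hypothalamus, against 42.1%, and 34.3% in the midbrain, against 41.4%. With both IPs numbered 1 left out, a setting chosen after seeing the data, 21 members were higher and 1 lower in the hypothalamus and 23 and 1 in the midbrain.

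**Figure D1:**
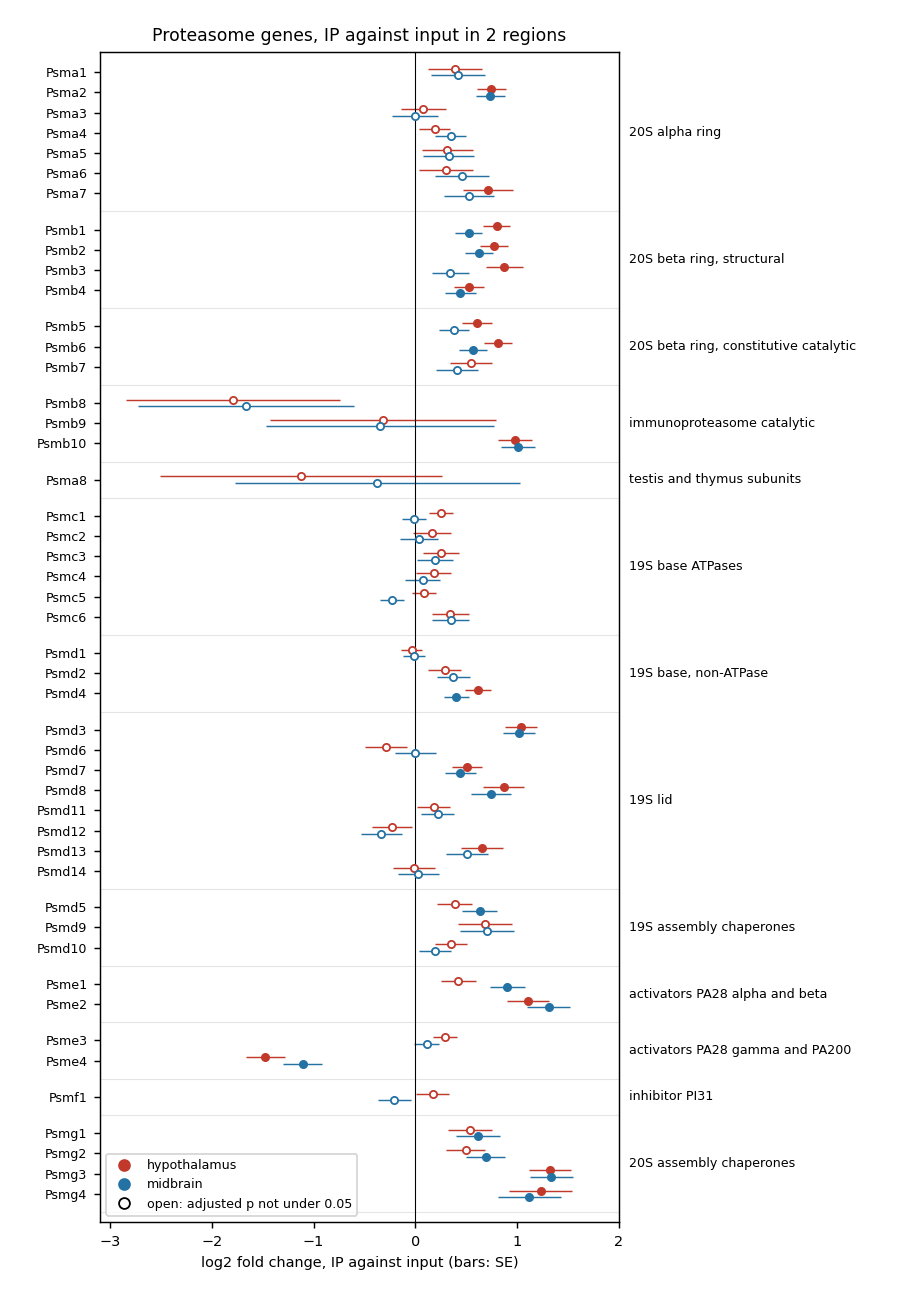
Log2 fold change of IP against input for the 47 members tested, hypothalamus in red and midbrain in blue, with bars of 1 SE and filled points where the adjusted p was under 0.05. The members are grouped by role: the chaperones of the 20S core and the structural and constitutive catalytic beta subunits lie to the right of 0, the ATPases sit near 0, and Psme4 lies at −1.47 and −1.11.

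In the constitutive 20S core 8 of 14 genes rose in the hypothalamus and 5 in the midbrain. None fell, and the medians were 0.58 and 0.43. For comparison, 17 of all 47 members rose in each region, and 14.2% and 14.0% of all genes tested. The midbrain share of the core was thus near that of all members. The summed level of the 14 genes was 1198, 1590 and 1583 CPM in the hypothalamus IP and 866, 994 and 1014 CPM in its input. The midbrain IP held 1059, 1365 and 1386 CPM and its input 849, 961 and 882 CPM. In both regions every IP library lay above every input library, and replicate 1 was the lowest of each group.

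Of the 7 genes of the alpha ring, which forms the gate of the core, Psma2 rose in both regions (0.75 and 0.74) and Psma7 in the hypothalamus (0.71, adjusted p = 0.0407). The other 5 did not pass in either region and lay between 0.08 and 0.39 in the hypothalamus. Psma7 lost its call without any 1 of 7 libraries, namely hypothalamus IP replicates 2 and 3, the 3 hypothalamus inputs and midbrain input replicates 2 and 3 (adjusted p = 0.0517 to 0.158). Its level was 149, 226 and 276 CPM in the hypothalamus IP against 107, 144 and 146 CPM in the input, so that replicate 1 of the IP lay only just above the highest input. With the block Psma7 was higher in the midbrain too (adjusted p = 0.00363), as were Psma4 (0.042) and Psma6 (0.0122). The summed alpha ring was at 479, 715 and 724 CPM in the hypothalamus IP, and its IP replicate 1 equalled input replicates 2 and 3, at 479 and 481 CPM, to within 2 CPM.

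All 4 structural beta genes, which hold the ring together without cutting, rose in the hypothalamus: Psmb3 (0.88), Psmb1 (0.80), Psmb2 (0.77) and Psmb4 (0.52). In the midbrain Psmb2 (0.63), Psmb1 (0.52) and Psmb4 (0.44) rose, and Psmb3 was at 0.35 (adjusted p = 0.158). Psmb1 was at 140, 154 and 134 CPM in the hypothalamus IP against 77.5, 85.3 and 83.4 CPM in the input, and at 105, 124 and 120 CPM against 72.9, 91.9 and 78.0 CPM in the midbrain. The groups of Psmb1 did not overlap in either region, although its midbrain call was lost with scaling by library size alone (adjusted p = 0.0574). Psmb4 lost its hypothalamus call without hypothalamus IP replicate 2 or 3 or input replicate 1 or 2 (adjusted p = 0.0537 to 0.0645). Its midbrain call was lost without replicate 2 or 3 of the midbrain IP, the midbrain input or the hypothalamus input (adjusted p = 0.054 to 0.128).

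**Figure D2:**
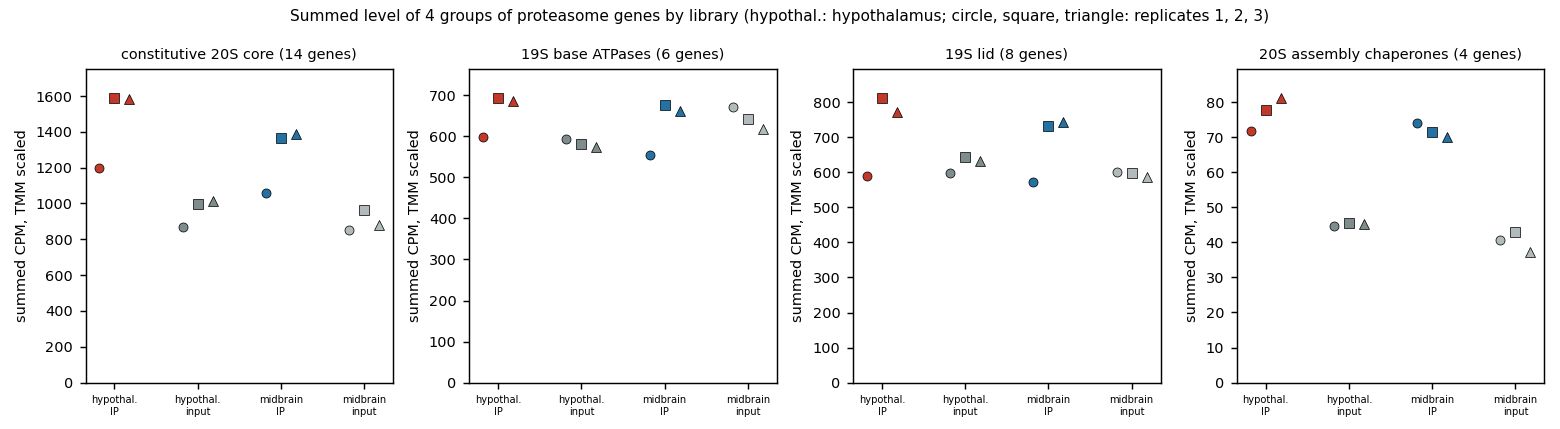
Summed CPM of 4 groups of proteasome genes in each of the 12 libraries, with 1 symbol per replicate number and axes from 0. The constitutive 20S core and the 20S assembly chaperones were higher in every IP library than in any input library of the same region, while the libraries of the lid overlapped in both regions and those of the ATPases in the midbrain.

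The constitutive catalytic subunits rose in part. Psmb6 (beta1, cutting after acidic residues; chromosome 11, 70525367 to 70527858, in mm10 like all positions of genes given here) was at 122, 144 and 120 CPM in the hypothalamus IP against 77.1, 69.1 and 73.7 CPM in the input. The midbrain IP held 100.4, 97.3 and 98.5 CPM and the midbrain input 72.2, 72.0 and 56.0 CPM. Every IP library lay above every input library, with log2 fold changes of 0.81 (SE 0.14, adjusted p = 0.000886) and 0.56 (SE 0.14, adjusted p = 0.00751).

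Psmb5 (beta5, the chymotrypsin-like site; chromosome 14, 54614119 to 54618022) was at 36.9, 45.8 and 38.5 CPM in the hypothalamus IP against 28.0, 23.7 and 27.9 CPM in the input, a rise of 0.60 (SE 0.15, adjusted p = 0.00873). Its midbrain values were 32.4, 36.2 and 35.5 CPM in the IP and 29.3, 25.4 and 25.4 CPM in the input, which did not overlap but did not pass (0.38, adjusted p = 0.0688). Psmb7 (beta2, the trypsin-like site; chromosome 2, 38588036 to 38644087) was at 102, 140 and 173 CPM against 92.7, 95.4 and 96.5 CPM in the hypothalamus. Its midbrain IP held 103, 125 and 169 CPM and its midbrain input 96.8, 105 and 96.7 CPM. Its inputs were nearly level while its IPs spread widely in both regions, with replicate 1 lowest and replicate 3 highest. Psmb7 did not pass (0.55, adjusted p = 0.0549, and 0.41, adjusted p = 0.14), but passed with the block in the hypothalamus (adjusted p = 0.0143), there also without replicate 1 of either IP or replicate 3 of the midbrain IP (adjusted p = 0.0112 to 0.0388), and with both IPs numbered 1 left out in both regions (adjusted p = 0.00406 and 0.0156). Its exons overlap those of Nek6 on the other strand over 405 bases. As the strand setting is not known, reads there may have been counted to a gene or set aside as ambiguous.

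Of the 3 immunoproteasome subunits 1 passed. Psmb10, the inducible replacement of Psmb7 (chromosome 8, 105935735 to 105938444), was plainly detected and rose in both regions. Its level was 47.9, 51.1 and 45.4 CPM in the hypothalamus IP against 22.5, 27.8 and 22.9 CPM in the input. The midbrain IP held 44.6, 43.3 and 44.8 CPM and the midbrain input 20.8, 26.7 and 18.4 CPM. The lowest IP library was well above the highest input library in each region, and the log2 fold changes were 0.98 (SE 0.17, adjusted p = 0.000922) and 1.01 (SE 0.17, adjusted p = 0.000763). Of the 19 alternatives none ended either call.

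Psmb8, the replacement of Psmb5, and Psmb9, that of Psmb6, lie in the MHC region of chromosome 17 (34197721 to 34201454 and 34181987 to 34187764) and were barely detected. The raw counts of Psmb8 were 44, 29 and 6 in the hypothalamus IP, 77, 191 and 14 in its input, 16, 30 and 1 in the IP of the midbrain and 68, 38 and 38 in its input. Those of Psmb9 were 66, 20 and 39, then 39, 122 and 1, then 41, 7 and 40, and last 66, 16 and 32 in the same order of groups. The hypothalamus inputs alone differed by more than 10 times in both genes, and the midbrain IP replicate 3 of Psmb8 and the hypothalamus input replicate 3 of Psmb9 lay under the floor of 3 counts. Psmb8 was at −1.80 (SE 1.05, adjusted p = 0.213) in the hypothalamus and −1.66 (SE 1.06, adjusted p = 0.252) in the midbrain. Its midbrain libraries did not overlap, and with the block it fell there (−2.49, adjusted p = 0.043).

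Psmb9 was at −0.32 (SE 1.11, adjusted p = 0.853) and −0.35 (SE 1.12, adjusted p = 0.84), and its sign depended on single libraries: it was 0.94 without hypothalamus input replicate 2 and 0.03 without hypothalamus IP replicate 2. The midbrain sign turned without IP replicate 2 (0.13) or input replicate 1 (0.18). Exons of Psmb9 share 212 bases with Tap1, the peptide transporter gene on the other strand. Whether reads there were counted to a gene or set aside as ambiguous is not known. Psmb9 passed in neither region under any of the 19 alternatives, and Psmb8 passed in 1 of the 2 regions and under the block only.

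**Figure D3:**
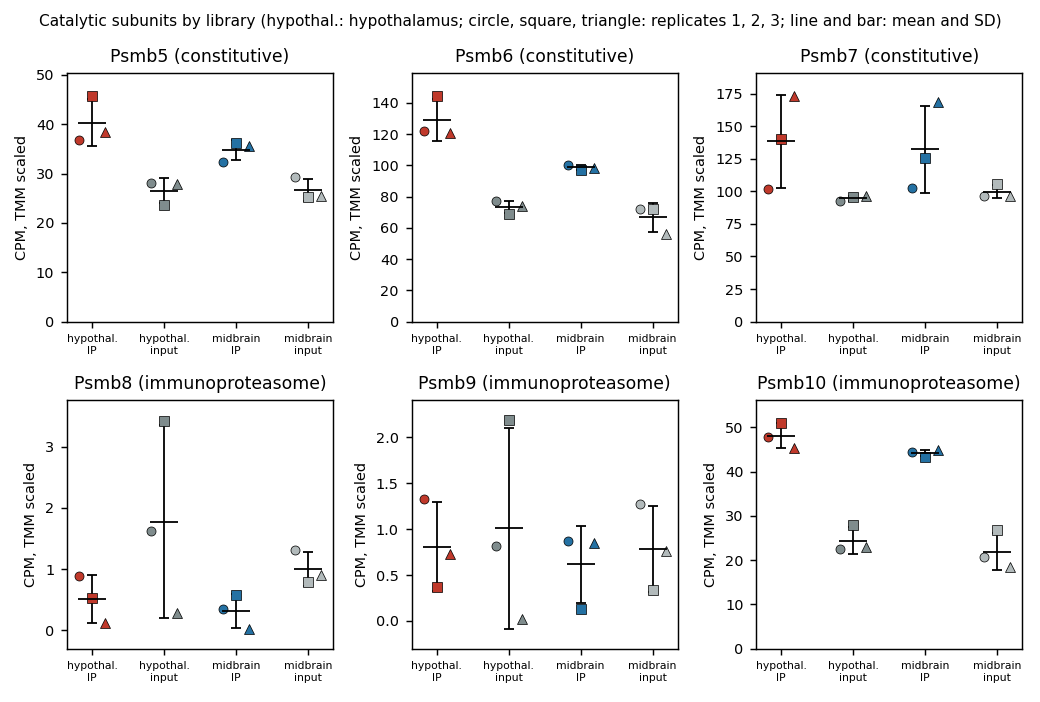
CPM of the 6 catalytic subunits in each library, constitutive in the upper and immunoproteasome subunits in the lower row, with a line at the mean and a bar of 1 SD over 3 libraries; each panel has its own axis. Psmb10 forms 2 separate levels, IP above input, while the axes of Psmb8 and Psmb9 end below 4 CPM and their libraries scatter.

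Set against the constitutive subunit that it replaces, each per kilobase of exon, Psmb10 was at 32.3% ± 9.3 of Psmb7 in the hypothalamus IP against 22.8% ± 2.7 in the input (SD, n = 3). In the midbrain the ratio was 30.8% ± 7.4 and 19.4% ± 2.8. The single IP values were 41.7%, 32.2% and 23.2% in the hypothalamus and 38.3%, 30.6% and 23.5% in the midbrain. The hypothalamus IP overlapped its input, whose highest value was 25.8%, and the midbrain IP did not overlap its input, whose highest value was 22.4%. Psmb7, the denominator, was lowest in replicate 1 of both IPs. Psmb8 was at 0.71% ± 0.59 of Psmb5 in the hypothalamus IP, 3.91% ± 3.76 in its input, 0.50% ± 0.43 in the midbrain IP and 2.05% ± 0.38 in its input. Psmb9 was at 0.38% ± 0.25, 0.84% ± 0.94, 0.37% ± 0.25 and 0.70% ± 0.39 of Psmb6 in the same groups. In all 4 groups Psmb10 thus stood between 19.4% and 32.3% of its constitutive partner on average, and the other 2 immunoproteasome subunits at under 4%. Among the denominators, 57.1% of the short windows of Psmb5 transcripts also occur in transcripts of other genes, and 405 exon bases of Psmb7 overlap Nek6. Among the numerators, Psmb8 and Psmb9 overlap genes on the other strand over 186 and 212 exon bases. Reads set aside as not unique or ambiguous would shift these ratios, and their part in them was not tested.

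Markers of microglia, the brain cells best known for the immunoproteasome, were summed beside these values. The 10 markers came to 2.02 to 2.79 CPM in the hypothalamus IP and 46.0 to 102 CPM in its input, and to 3.75 to 6.39 CPM in the midbrain IP and 71.8 to 118 CPM in its input. All 10 fell, with changes of −8.99 to −3.79 in the hypothalamus and −5.19 to −3.43 in the midbrain on the log2 scale, and C1qa had 0 counts in all 3 hypothalamus IPs. Which cells gave the Psmb10 reads was not tested. Of 11 genes of MHC class I presentation and interferon factors 2 fell in the hypothalamus and 5 in the midbrain (medians −1.03 and −0.65). Of all genes tested 19.6% were lower in the hypothalamus IP, near the share of this list, and 19.9% in the midbrain IP. None of them rose by edgeR, DESeq2 or limma-voom, and the genes with an unadjusted p under 0.05 were those that fell. B2m, the light chain of MHC class I, fell in both (−1.25, adjusted p = 0.0282, and −1.11, adjusted p = 0.0465), as did the microglial interferon factor gene Irf8 (−3.39 and −2.13), and the heavy chain gene H2-K1 fell in the midbrain (−3.85). The B2m call was lost without hypothalamus IP replicate 2 or 3 or input replicate 1 or 2 in the hypothalamus (adjusted p up to 0.116). In the midbrain it was lost without midbrain IP replicate 2 or 3, midbrain input replicate 1 or 2, hypothalamus IP replicate 3 or hypothalamus input replicate 2 (up to 0.227). The midbrain call of Irf8 was lost without midbrain IP replicate 1 or 3 or any 1 midbrain input, and that of H2-K1 without midbrain IP replicate 2 or 3 (up to 0.0923 and 0.0548). Tap1 was at −0.55 (adjusted p = 0.805) and −0.65 (adjusted p = 0.769), with means under 0.6 CPM in all groups. With 1 library left out, 1 to 4 genes of this list fell in the hypothalamus, the 4 without IP replicate 1, and 1 to 5 in the midbrain.

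The testis subunit Psma8 and the thymus subunit Psmb11 were absent or nearly so. Psma8 had at most 22 counts in a library (0, 11 and 9 in the hypothalamus IP, 5, 22 and 16 in its input) and did not pass. Psmb11 was not tested: it had 0 counts in all 6 IP libraries, 5, 6 and 0 in the hypothalamus input and 11, 0 and 0 in the midbrain input.

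In the 19S regulatory particle 5 of 17 genes rose in the hypothalamus and 4 in the midbrain, with medians of 0.25 and 0.19. The remaining 12 and 13 did not pass. Across all 18128 genes tested 14.2% and 14.0% rose, and 12005 and 11980 did not pass. None of the 6 ATPases of the base, which unfold the substrate, passed in either region by edgeR, where 0 had an unadjusted p under 0.05, or by limma-voom, and 1 fell in the midbrain by DESeq2. They lay between 0.09 and 0.34 in the hypothalamus and between −0.23 and 0.35 in the midbrain. The summed ATPases were at 598, 694 and 685 CPM in the hypothalamus IP against 593, 581 and 575 CPM in its input, where the lowest IP lay just above the highest input. In the midbrain the IP held 555, 676 and 662 CPM and its input 671, 642 and 617 CPM, so that IP replicate 1 was the lowest of the 6 midbrain libraries. Psmc5, the ATPase with the highest level per kilobase, was at −0.23 in the midbrain (adjusted p = 0.155) and was the ATPase that fell by DESeq2 (−0.28, adjusted p = 0.0383). In the base, Psmd4, the ubiquitin receptor also called Rpn10, rose in both regions (0.62 and 0.40), while the scaffold subunit Psmd1 was at −0.04 and −0.02 and the scaffold subunit Psmd2 at 0.29 and 0.37. Psmd2 passed with the block in both (adjusted p = 0.0398 and 0.0117). The midbrain call of Psmd4 was lost without midbrain IP replicate 2 or 3, midbrain input replicate 1 or 3 or hypothalamus input replicate 3 (adjusted p = 0.0557 to 0.085).

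The lid was split. Psmd3, a structural subunit of the lid also called Rpn3 (chromosome 11, 98682554 to 98695979), was at 71.1, 71.2 and 62.2 CPM in the hypothalamus IP against 32.2, 32.8 and 34.2 CPM in the input. The midbrain IP held 73.0, 66.5 and 57.0 CPM and the midbrain input 28.6, 29.5 and 38.7 CPM. Each IP library was well above each input, with log2 fold changes of 1.04 (SE 0.16, adjusted p = 0.000445) and 1.02 (SE 0.16, adjusted p = 0.000524). Psmd8 (0.87 and 0.74) and Psmd7 (0.51 and 0.44) rose in both regions and Psmd13 in the hypothalamus (0.65). Psmd14, the deubiquitinase of the lid, was at −0.01 and 0.03, Psmd11 at 0.18 and 0.22, Psmd12 at −0.23 and −0.33, and Psmd6 at −0.29 and 0.00, none of which passed. The catalytic subunit of the lid thus lay near 0 while Psmd3 rose 2.06-fold and 2.03-fold. Leaving out 1 library ended some calls of the lid. Psmd7 lost its hypothalamus call without hypothalamus IP replicate 2 or any 1 hypothalamus input, and its midbrain call without midbrain IP replicate 2 or 3, any 1 midbrain input or hypothalamus input replicate 2 or 3 (adjusted p = 0.0504 to 0.13). Psmd8 lost its midbrain call without midbrain IP replicate 3 or input replicate 1 (0.057 and 0.0554). Psmd13 lost its call without hypothalamus IP replicate 1 or 2 or input replicate 2 or 3 (0.0522 to 0.115). In Psmd13, IP replicate 1 was the highest library, at 48.4 CPM against 36.1 and 28.9 CPM. The chaperones that assemble the base, Psmd5, Psmd9 and Psmd10, were at 0.39, 0.68 and 0.35 in the hypothalamus, where none passed, and at 0.63, 0.71 and 0.19 in the midbrain, where Psmd5 rose (adjusted p = 0.0136, and 0.0593 and 0.0567 without midbrain input replicate 2 or 3). The block added Psmd5 in the hypothalamus (adjusted p = 0.0283) and Psmd9 in both regions (0.0446 and 0.0348), and Psmd13 in the midbrain (0.0298).

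Among the assembly chaperones of the 20S core Psmg3 and Psmg4 rose in both regions. Psmg1 to Psmg4 pair up to build the alpha ring and are not part of the finished core. Their summed level was 71.6, 77.7 and 81.2 CPM in the hypothalamus IP against 44.7, 45.5 and 45.3 CPM in the input, and 74.1, 71.6 and 70.2 CPM against 40.6, 43.0 and 37.4 CPM in the midbrain. Here replicate 1 of the IPs was not set apart from the others. All 4 rose in the midbrain and Psmg3 and Psmg4 in the hypothalamus, with Psmg1 (0.54, adjusted p = 0.0744) and Psmg2 (0.49, adjusted p = 0.0649) short of the threshold there unless the block was used (0.0414 and 0.0315). DESeq2 called Psmg2 there (0.0331).

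Psmg3 (chromosome 5, 139823592 to 139826885) was at 21.0, 17.8 and 18.5 CPM in the hypothalamus IP against 7.33, 8.21 and 7.39 CPM in the input. Its midbrain values were 17.1, 14.9 and 16.3 CPM in the IP and 7.84, 6.43 and 4.85 CPM in the input. The IP held 2.50 and 2.53 times the input (1.32, SE 0.21, adjusted p = 0.0006, and 1.34, SE 0.21, adjusted p = 0.000592). Its exons overlap those of Gm26938 on the same strand over 237 bases. Psmg4 (chromosome 13, 34162964 to 34178173) was at 10.2, 9.05 and 11.1 CPM against 2.80, 5.12 and 4.97 CPM in the hypothalamus and at 7.65, 9.75 and 8.91 CPM against 3.79, 5.41 and 2.89 CPM in the midbrain. Its groups did not overlap (1.23, SE 0.31, adjusted p = 0.00885, and 1.12, SE 0.31, adjusted p = 0.0142), although the midbrain call was lost without midbrain input replicate 3 (0.93, adjusted p = 0.0603). The midbrain call of Psmg1 (0.62, adjusted p = 0.0455) was lost in 14 of the 19 alternatives, among them any 1 midbrain library, any 1 hypothalamus input and hypothalamus IP replicate 2 (0.0571 to 0.146). That of Psmg2 (0.69, adjusted p = 0.0149) was lost without midbrain IP replicate 1 or input replicate 3 (0.0563 and 0.0583).

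Of the activators of the core Psme2 rose and Psme4 fell in both regions. PA28 alpha and beta, encoded by Psme1 and Psme2, form the interferon-inducible ring that opens the core for peptide production. Psme2 (chromosome 14, 55587441 to 55591113) was at 24.5, 30.3 and 20.8 CPM in the hypothalamus IP against 11.5, 13.0 and 10.6 CPM in the input. In the midbrain the IP held 24.6, 22.1 and 19.1 CPM and its input 9.57, 9.77 and 7.19 CPM. It rose without overlap in both regions (1.11, SE 0.21, adjusted p = 0.0017, and 1.31, SE 0.21, adjusted p = 0.000643). The transcripts of Psme2 share 59.3% of their 50-base windows with other genes, most with the copy Psme2b. Reads that align to both would stand in the row of alignments that are not unique, outside the genes.

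Psme1 (chromosome 14, 55578123 to 55581529) was at 98.1, 121 and 96.3 CPM in the hypothalamus IP against 76.3, 86.7 and 72.6 CPM in the input. The midbrain IP held 78.0, 87.7 and 88.7 CPM and the midbrain input 42.3, 56.8 and 36.8 CPM, and neither region's libraries overlapped. The midbrain rise passed (0.91, SE 0.17, adjusted p = 0.00196) and the hypothalamus difference did so only with the block (0.42, adjusted p = 0.0763, and 0.0161 with it) or without midbrain input replicate 2 (0.0472). The difference between the 2 regional effects did not pass (−0.48, SE 0.24, adjusted p = 0.802).

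Psme4, which encodes PA200, a large nuclear activator that binds the core without ATP (chromosome 11, 30771726 to 30880361), was the 1 member that fell in both regions. Its level was 22.9, 26.3 and 33.3 CPM in the hypothalamus IP against 72.7, 87.0 and 69.5 CPM in the input. The midbrain values were 32.7, 43.0 and 43.3 CPM in the IP and 100.1, 69.3 and 87.2 CPM in the input. No IP library came near an input library, and the log2 fold changes were −1.47 (SE 0.20, adjusted p = 0.000187) and −1.11 (SE 0.19, adjusted p = 0.00117), with no call lost in any of the 19 alternatives. Psme3, which encodes the nuclear PA28 gamma, was the activator with the highest CPM, at 171, 176 and 197 CPM against 136, 142 and 166 CPM in the hypothalamus and at 175, 162 and 188 CPM against 158, 160 and 168 CPM in the midbrain. It was at 0.29 (adjusted p = 0.083, and 0.0227 with the block) and 0.11 (adjusted p = 0.52). Psmf1, the gene of the inhibitor PI31, was at 50.1, 50.3 and 43.0 CPM against 41.6, 42.0 and 43.7 CPM in the hypothalamus, and at 37.8, 37.0 and 26.8 CPM against 41.5, 41.5 and 34.2 CPM in the midbrain, where the groups overlapped. It passed in neither region (0.17, adjusted p = 0.453, and −0.21, adjusted p = 0.36).

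Comparisons between the regions called at most 1 member. No member passed in the regional difference of IP against input by edgeR, DESeq2 or limma-voom, and 0 had an unadjusted p under 0.05, where 0.0772% of all genes passed. Between the IPs no member passed by edgeR either, where 4.26% of all genes did, or by limma-voom, although 6 had an unadjusted p under 0.05 and DESeq2 called 1. The IP libraries of the 2 regions did not overlap for 10 of 47 members, near the 18.5% of all genes that did not overlap in 1 direction or the other. All 10 were higher in the hypothalamus, and the share of all genes in that direction alone was not taken. The log2 fold change between the IPs was above 0 for 40 of the 47 members and for 9261 of the 18128 genes tested (medians 0.12 and 0.01). The members share libraries and are not independent. Psmf1 was the member called by DESeq2, and the block called it too (0.51, adjusted p = 0.0303, against 0.50, adjusted p = 0.117, without it): its 3 hypothalamus IP libraries, given above, lay above its 3 midbrain IP libraries.

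Between the inputs 1 member passed, Psme1, which was higher in the hypothalamus tissue (0.79, SE 0.17, adjusted p = 0.0415), where 1.0% of all genes were higher. The 3 hypothalamus inputs, at 72.6 to 86.7 CPM, did not overlap the 3 midbrain inputs, at 36.8 to 56.8 CPM. Between the IPs the difference of Psme1 was 0.31 (adjusted p = 0.368). The call rested on the full set of libraries, since it was lost with the size factors of DESeq2 (adjusted p = 0.052) and without any 1 of 8 libraries: each hypothalamus input, each midbrain IP and midbrain input replicates 1 and 3 (adjusted p = 0.0535 to 0.195). Its value stayed between 0.66 and 0.81 in these fits. Libraries of 7 members lay higher and of 2 lower in the hypothalamus inputs without overlap, against 11.9% and 10.2% of all genes. Region and lane cannot be told apart within a replicate number.

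The members differed widely in RNA level. Subunits of the core and the particle are built in equal number as proteins, which were not measured here. Exon length joins the exons of all protein-coding transcripts of a gene, which can lower its value per kilobase. Per kilobase (kb) of exon, the mean in the hypothalamus IP was 184 ± 54 CPM per kb for Psma7, 180 ± 7 for Psmc5, 172 ± 17 for Psmb2, 166 ± 24 for Psmb4 and 162 ± 17 for Psmb6 (SD, n = 3), which did not differ beyond their spread. At the other end of the constitutive core, Psma3 was at 3.15 ± 0.50 CPM per kb and Psmb3 at 30.3 ± 2.2. Some members have copies elsewhere in the genome: 22.0% of the 50-base windows of Psma3, 55.8% of Psmb3, 54.5% of Psma5 and 57.1% of Psmb5 occur in transcripts of other genes, and alignments that are not unique stand in a row of their own, outside the genes. That row held 37.3% to 48.6% of the counts of all rows in the IP libraries and 23.7% to 30.04% in the inputs, and their part in the fold changes of genes with copies was not tested. For Psmb6 the share of such windows was 2.67%, and for Psmb10, Psmd3, Psme4 and Psmg4 it was 0.0%.

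Exon length ran against the fold change. Across the 47 members, which share libraries and are not independent, Spearman's rho between exon length and log2 fold change was −0.42 in the hypothalamus and −0.37 in the midbrain (Pearson's r −0.39 and −0.38). Across 14653 protein-coding genes it was −0.25 and −0.21, and across the 5962 of them within the members' middle range of lengths −0.17 and −0.14. Psme4, the longest member with 6491 bases of exon, was the member that fell, and Psmg4, the shortest with 555 bases, had the second-largest rise in the hypothalamus. The 47 members had a median length of 1541 bases and all protein-coding genes tested 3354. Length was not separated from role, and its part in the fold changes was not tested.

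**Figure D4:**
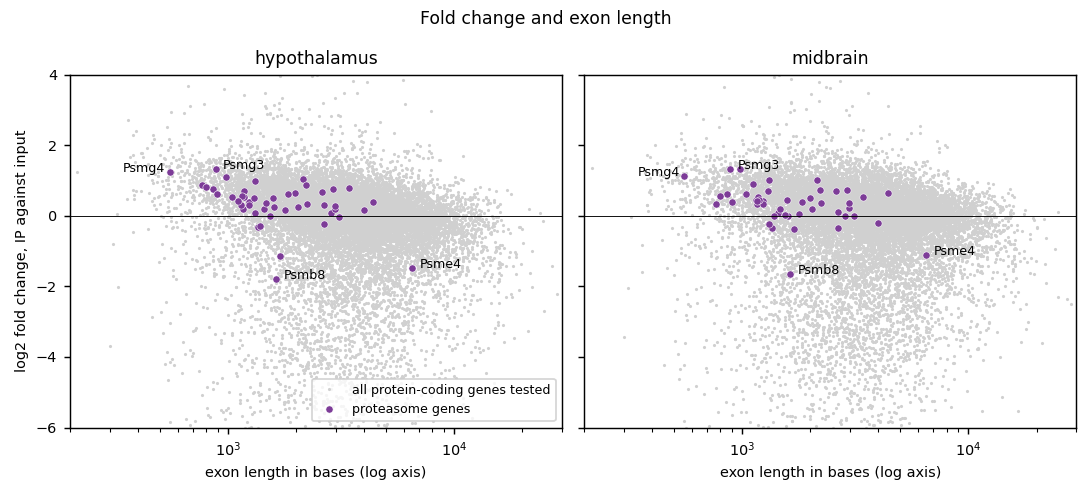
Log2 fold change of IP against input and exon length (log axis) for the proteasome genes, in purple, and for all protein-coding genes tested, in grey, in each region. Psmg4 and Psmg3 lie at the short end above 1 and Psme4 at the long end below −1; points beyond the range of −6 to 4 are not drawn.

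Replicate 1 was the lowest library for 29 of the 47 tested members in the hypothalamus IP, 27 in the hypothalamus input, 28 in the midbrain IP and 18 in the midbrain input. The median coefficient of variation of the members was 14.2% in the hypothalamus IP, 8.78% in its input, 13.2% in the midbrain IP and 12.1% in its input. The order was not the same for all: Psmd13, Psmd9 and Psmd2 were highest in the IPs numbered 1, for example Psmd9 at 49.3, 31.7 and 26.8 CPM in the hypothalamus, while the alpha ring genes Psma1 (37.5, 74.3 and 55.6 CPM) and Psma6 (82.0, 143 and 140 CPM) were lowest there.

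Genes that work with the proteasome but carry other symbols were counted beside all genes tested, of which 14.2% rose and 19.6% fell in the hypothalamus. In the midbrain these shares were 14.0% and 19.9%. Of 23 partners and regulators 7 rose and 3 fell in the hypothalamus and 5 rose and 2 fell in the midbrain. Their medians were 0.28 and 0.25, and 10 rose in the midbrain with the block. Pomp, the maturation protein that acts after the Psmg chaperones, rose from 180 ± 7 to 427 ± 31 CPM in the hypothalamus (1.25, SE 0.11, adjusted p = 1.48e-05) and from 206 ± 17 to 405 ± 25 CPM in the midbrain (0.97, SE 0.11, adjusted p = 7.57e-05). Shfm1, the smallest lid subunit, rose by 1.42 and 1.37. Nfe2l1, the factor that raises proteasome genes when the proteasome fails, was at −0.10 and −0.02 (adjusted p = 0.795 and 0.954), and the ubiquitin receptor gene Adrm1 at 0.33 and 0.19 (adjusted p = 0.384 and 0.625). The related factor gene Nfe2l2 fell by 3.55 and 3.18 on the log2 scale, and Fbxo7, whose product binds PI31, by 0.97 and 1.26. Of the 4 ubiquitin genes none passed by edgeR in either region (unadjusted p under 0.05 for 0 in the hypothalamus and 1 in the midbrain, 1 called higher by DESeq2 in the midbrain). Of the 9 subunits of the COP9 signalosome, a complex built like the lid, 3 rose in each region, with Cops7a at 1.24 and 1.04 and Cops8 at 0.99 and 0.98, while 5 rose in the midbrain without hypothalamus IP replicate 1, and 7 and 8 rose with both IPs numbered 1 left out. Of the 8 subunits of the CCT chaperonin, a ring of another kind, 1 fell in the hypothalamus, where 2 had an unadjusted p under 0.05, and none passed in the midbrain, where 1 did (medians −0.04 and 0.08). DESeq2 and limma-voom gave the same counts for the CCT list, the block gave 2 and 1 lower, and the hypothalamus call was lost without hypothalamus input replicate 2 or 3. In the midbrain 1 fell without midbrain IP replicate 2.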

How the data were processed

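Polysomal RNA captured through the EGFP tag and input RNA were sequenced in 12 libraries. Per the submitters' processing notes, the authors aligned reads to mm10 with STAR 2.0.0e and counted them with HTSeq. The deposited values are raw counts per gene, whole numbers and not normalized. The annotation, the strand setting and the counting mode are not given in the sources used here. Whether reads of overlapping genes on opposite strands were counted to a gene or set aside as ambiguous is therefore not known. In each library 5 summary rows (alignments without a gene, ambiguous, not unique and the like) and 1 row named unknown were left out of totals and tests. The ambiguous row held 1.37% to 2.00% of the counts of all rows in the IPs and 4.03% to 16.2% in the inputs, and the row without a gene 7.595% to 8.04% and 12.0% to 17.4%. The part of these rows in the fold changes was not tested.

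All 12 libraries entered 1 fit of 4 group means with edgeR 4.0.16 in R 4.3.3 (filterByExpr by group, TMM scaling, robust quasi-likelihood test), from which 5 comparisons were taken. The labels do not say whether replicates came from separate animals, so p-values measure the spread between these libraries, which may be technical. Means are given with the SD. Two-sided permutation tests of 3 against 3 libraries cannot go below p = 0.1 and were not used. Alternatives were DESeq2 1.42.0, its size factors in edgeR, library size alone, no filter on low counts, limma-voom (limma 3.58.1), the replicate number as a block and each library left out in turn. Leaving out both IPs numbered 1 was added after seeing the data. Same-numbered libraries deviated together from their group means, with correlations of 0.17 to 0.64 over 18128 genes against at most 0.16 between different numbers, so the numbers were taken to pair the libraries. The floor of 3 counts covers counting error only.

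The members, the gene lists and the rules for naming were chosen with earlier results of these data known. Values in every library were given for the 6 catalytic subunits, Psme1 to Psme4, Psmf1, the 5 called members with the largest change in each direction of IP against input and every called member of the other comparisons. Further members were given by class with counts, ranges and examples. Of the lists of other genes, counts, medians and up to 4 called genes were given, with Nfe2l1, Pomp, Adrm1, Tap1, B2m and Slc17a6 always named. Library values of Psmb1, Psma7, Psma1, Psma6, Psmd9 and Psmd13 were added after seeing them. Positions, exon lengths and shared 50-base windows are from GENCODE vM21 (GRCm38, the build of mm10), and promoters from RefSeq. A gene of the lists of other genes is not reported here.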

Additional observations from a re-analysis of the deposited data

How the results depend on the processing

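Under the 19 alternatives, 13 of the 18 calls in the hypothalamus and 9 of the 18 in the midbrain held throughout. Scaling by library size alone ended the hypothalamus calls of Psma7, Psmb4, Psmb5, Psmd7 and Psmd13 (adjusted p = 0.0597 to 0.195). In the midbrain it ended those of Psmb1, Psmb4, Psmd4, Psmd7 and Psmg1 (0.0574 to 0.164). DESeq2 did not call Psmb4, Psmd7 or Psmg1 in the midbrain (0.0538 to 0.0688). Its size factors in edgeR ended the hypothalamus call of Psma7 (0.0631) and the midbrain calls of Psmb4, Psmd4, Psmd7 and Psmg1 (0.0525 to 0.0788). The number of members higher in the IP ran from 13 to 18 in the hypothalamus and from 10 to 19 in the midbrain when 1 library was left out. With 2 libraries left in a group, its spread is taken from all groups. DESeq2 and the replicate block each gave 2 lower members in the midbrain and 1 member, Psmf1, higher in the hypothalamus IP than in the midbrain IP. Between the inputs the count of called members, 1 in the fit of all libraries, ran from 0 to 1 with 1 library left out and was 0 with DESeq2 size factors in edgeR. The sign of Psmb9 turned in the hypothalamus with limma-voom (0.86) and ran from −0.90 to 0.94 with 1 library left out, and from −0.71 to 0.18 in the midbrain. The causes were not tested. Beside the members named in the report, the block changed no other call among the members. With both IPs numbered 1 left out, 17 of the 18 hypothalamus calls and 18 of the 18 midbrain calls were kept. Psmb8, Psmb9, Psma8 and Psmb11 had few counts that scattered between libraries, and the part of depth in this was not tested.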
